A study of Homo sapiens with 6 samples.

Results

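A set of 10 genes of actin-based contraction was followed through a knockdown of primate-specific histone H3 variants in U2OS, an established cell line from a human osteosarcoma. The genes were the actins ACTBL2, ACTA2 and ACTG2, the actin-binding proteins TAGLN, CNN1, CALD1, TPM1 and TPM2, the myosin light chain MYL9 and the light chain kinase MYLK. The members were chosen by symbol, as probe sets that carry exactly 1 gene symbol, and all 10 had 1 such probe set each, out of 18417 genes named on the arrays. ACTBL2 entered the choice for its high values in the combined knockdown in earlier results of the same arrays. Which values of the other members entered the choice is not recorded. The differences of all 10 are therefore given as descriptions, with no test.

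Cells of all 3 groups were transfected 2 times with siRNA, using oligofectamine, and collected 4 days later. The groups were the combined knockdown (siRNA against H3.X and H3.Y), the H3.Y knockdown (H3.Y siRNA) and the control (luciferase siRNA, which targets no human gene), with 2 arrays each. All cells thus carried an siRNA, every sample came from the same line, and the labels do not say whether the combined group received a mixture or an siRNA that hits both genes. The arrays of a group are called biological replicates without a word on separate cultures, so the spread behind each p-value is that between arrays and may be technical. Since 0 probe sets were named for the H3.X and H3.Y genes, the knockdown itself was not read here. Array medians lay between 5.10 and 5.14 on the log2 scale, arrays of 1 group correlated with r of at least 0.986, and the number of arrays limited the precision.

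In smooth muscle, myosin heads pull on actin filaments once the kinase MYLK, switched on by calcium and calmodulin, has phosphorylated the regulatory light chain MYL9. Tropomyosins lie along the actin filament, while calponin (CNN1) and caldesmon (CALD1) bind it and hold the myosin ATPase back. ACTA2 and ACTG2 are the vascular and enteric smooth muscle actins, and fibroblasts and tumour cells of mesenchymal origin also use parts of this set in their stress fibres. Many of these genes are targets of serum response factor (SRF), which binds the CArG box, and of its actin-sensing coactivators MRTFA and MRTFB. ACTBL2 encodes a close relative of beta-actin that most tissues express at low levels.

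The bases just before the transcript start are shown for the 2 members that were higher in the combined knockdown (ACTBL2 and CNN1) and for both smooth muscle actins. They were read from RefSeq on GRCh38.p14, 5′ to 3′ on the gene's strand, and each covers 250 bases that end at the start. Capitals mark a CArG box or an MCAT element (CATTCC, bound by TEAD factors), searched on both strands. Only the strict CArG box was searched, that is CC, then 6 letters A or T, then GG, so boxes that depart from it stay in lower case. The ACTBL2 window is chr5:57482812-57483061, minus strand, the CNN1 window chr19:11538601-11538850, plus strand, the ACTG2 window chr2:73892758-73893007, plus strand, and the ACTA2 window chr10:88952774-88953023, minus strand, the second of 2 listed for ACTA2.
ACTBL2: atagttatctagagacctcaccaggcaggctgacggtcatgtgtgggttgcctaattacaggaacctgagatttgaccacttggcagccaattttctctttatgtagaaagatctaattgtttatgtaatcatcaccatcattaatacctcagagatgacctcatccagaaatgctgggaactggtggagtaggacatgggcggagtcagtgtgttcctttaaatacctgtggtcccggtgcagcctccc
CNN1: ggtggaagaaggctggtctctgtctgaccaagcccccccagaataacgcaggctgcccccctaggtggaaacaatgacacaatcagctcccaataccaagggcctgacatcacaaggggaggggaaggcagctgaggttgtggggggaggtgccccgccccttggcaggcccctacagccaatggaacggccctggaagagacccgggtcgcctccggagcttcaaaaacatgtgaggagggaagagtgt
ACTG2: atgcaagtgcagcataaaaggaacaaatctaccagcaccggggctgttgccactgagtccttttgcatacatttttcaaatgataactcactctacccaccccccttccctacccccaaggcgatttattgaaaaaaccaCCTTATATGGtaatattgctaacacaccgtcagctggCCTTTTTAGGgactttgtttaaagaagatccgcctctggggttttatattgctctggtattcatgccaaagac
ACTA2: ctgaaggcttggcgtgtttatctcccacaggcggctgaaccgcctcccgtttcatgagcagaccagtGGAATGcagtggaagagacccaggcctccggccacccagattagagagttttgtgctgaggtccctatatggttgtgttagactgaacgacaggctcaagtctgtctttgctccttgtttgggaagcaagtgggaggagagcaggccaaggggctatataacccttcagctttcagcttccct

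A strict CArG box was found in 1.16% of 35116 such windows over all genes and an MCAT element in 11.9%. The ACTG2 window held 2 CArG boxes, which start 110 and 73 bases before the transcript start. ACTA2 held 1 MCAT element, on the opposite strand and 183 bases before the start. Its window also holds ccctatatgg and ccttgtttgg, which each differ from the strict CArG box by 1 letter and were not counted. The ACTBL2 and CNN1 windows held neither motif. Of the 10 members, 8 had a window, and 2 of these 8 genes (ACTG2 and MYLK) held a strict CArG box, while ACTA2 and CALD1 held an MCAT element. Some genes had several windows. Counted by window, as in the shares over all genes, 2 of the members' 13 windows held a strict CArG box and 3 an MCAT element. Boxes with a letter off the strict form were not searched for systematically, so naming them for ACTA2 alone sets up no contrast with the other genes. The MYLK window at chr3:123620549-123620798, minus strand lies inside the gene. A match describes letters and is no evidence of binding.

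ACTBL2 had its high values in the combined knockdown, which is what it was chosen for. These are bulk samples, in which a change in the number of cells of a kind and a change in RNA per cell cannot be told apart. The log2 values of ACTBL2 were 6.88 and 6.80 in the combined knockdown, 2.93 and 3.36 after H3.Y siRNA, and 3.57 and 3.02 in luciferase cells. Both arrays of the combined knockdown were high, and the H3.Y and luciferase arrays overlapped. The mean was 6.84 ± 0.06 in the combined knockdown against 3.29 ± 0.39 in luciferase cells (SD, n = 2 each), a difference of log2 3.55 ± 0.23 (SE), or 11.7-fold. After H3.Y siRNA the mean was 3.15 ± 0.31, a difference of -0.15 ± 0.23 from luciferase. Combined knockdown over H3.Y siRNA gave log2 3.70 ± 0.23, or 13.0-fold. The 4 low values lay in the low part of the scale, where between 20.5% and 27.8% of the probe sets on the same array were lower, against 71.9% and 73.0% in the combined knockdown. The fold therefore depends on where that low end lies.

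**Figure D1:**
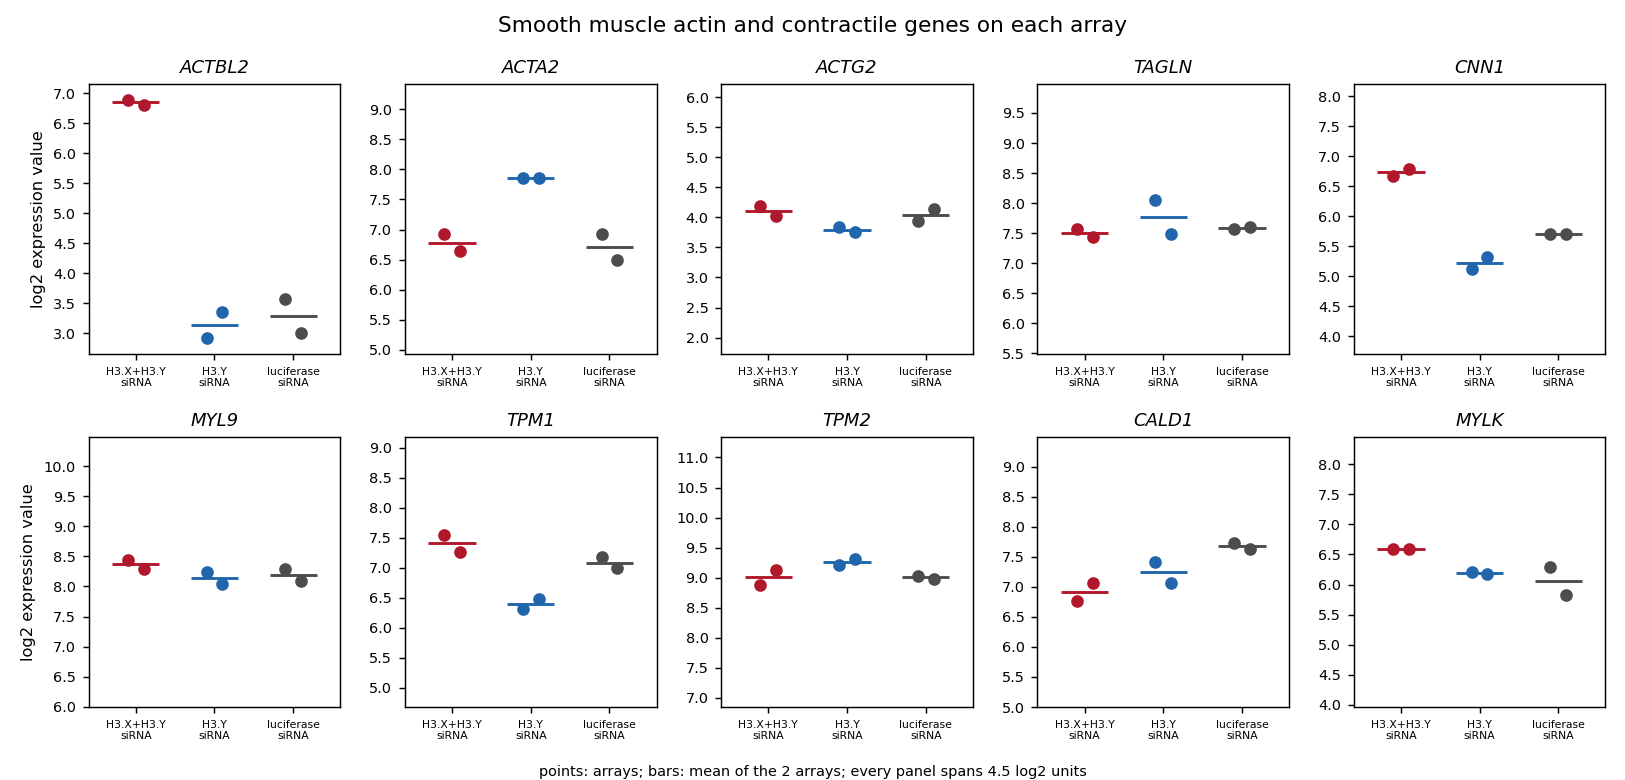
Log2 expression values of the 10 contractile genes on each of the 6 arrays (points) with the mean of the 2 arrays of a group (bars), by siRNA group. ACTBL2 is near 6.8 in the combined knockdown and near 3 in the other groups, CNN1 is highest in the combined knockdown, and ACTA2 is highest after H3.Y siRNA.

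ACTA2 was instead highest after H3.Y siRNA. It had log2 values of 6.92 and 6.65 in the combined knockdown, 7.86 and 7.86 after H3.Y siRNA, and 6.92 and 6.50 in luciferase cells. The H3.Y arrays lay above all 4 others, and the combined knockdown overlapped with luciferase. H3.Y siRNA over luciferase gave log2 1.15 ± 0.19 (2.22-fold), and combined knockdown over luciferase gave 0.07 ± 0.19. The combined knockdown lay log2 -1.07 ± 0.19 from H3.Y siRNA, that is 2.10-fold lower.

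ACTG2, the enteric actin, stayed between 3.76 and 4.19 on all 6 arrays. Its differences were 0.07 ± 0.14 in the combined knockdown and -0.25 ± 0.14 after H3.Y siRNA, both from luciferase. Of the 4 actins outside the members, beta-actin (ACTB) had 12.76 and 12.75 in the combined knockdown, 12.52 and 12.41 after H3.Y siRNA, and 12.74 and 12.65 in luciferase cells. Gamma-actin (ACTG1) lay between 12.46 and 12.65, skeletal alpha-actin (ACTA1) between 6.07 and 6.45, and cardiac alpha-actin (ACTC1) between 4.46 and 5.06. Over the 6 other actins, the differences between combined knockdown and luciferase ran from -0.19 to 0.07, so that ACTBL2 exceeded them by log2 3.48 (ACTA2) to 3.74 (ACTC1). Between H3.Y siRNA and luciferase they ran from -0.38 to 1.15, the highest being ACTA2. For ACTB and ACTG1 the difference between combined knockdown and luciferase was 0.06 each. Whether the ACTBL2 probe set also reads other actin transcripts was not tested.

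Among the actin-binding members, CNN1 had the order combined knockdown, luciferase, H3.Y siRNA. It had log2 values of 6.67 and 6.79 in the combined knockdown, 5.12 and 5.33 after H3.Y siRNA, and 5.70 and 5.71 in luciferase cells. No 2 groups overlapped. Combined knockdown over luciferase was log2 1.03 ± 0.14 (2.04-fold) and over H3.Y siRNA 1.51 ± 0.14 (2.85-fold). H3.Y siRNA differed from luciferase by -0.48 ± 0.14.

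TPM1, an alpha-tropomyosin, had log2 values of 7.55 and 7.27 in the combined knockdown, 6.31 and 6.48 after H3.Y siRNA, and 7.17 and 7.00 in luciferase cells. The H3.Y arrays were the low ones, and the other groups were separated by a gap smaller than the spread of the combined knockdown arrays. The difference from luciferase was 0.32 ± 0.16 in the combined knockdown and -0.69 ± 0.16 after H3.Y siRNA. The difference between the knockdowns was log2 1.01 ± 0.16 (2.02-fold). TPM2, a beta-tropomyosin, lay between 8.89 and 9.31 on all arrays, and its 3 differences were between -0.26 and 0.26.

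CALD1 had the most negative difference from luciferase in the combined knockdown among the members. Its log2 values were 6.76 and 7.06 in the combined knockdown, 7.42 and 7.07 after H3.Y siRNA, and 7.73 and 7.63 in luciferase cells. Both knockdowns lay below luciferase without overlap, and beside each other their arrays nearly touched. The differences from luciferase were -0.77 ± 0.18 in the combined knockdown and -0.44 ± 0.18 after H3.Y siRNA. Only 1 probe set stood for CALD1, so the smooth muscle and non-muscle forms of caldesmon were not told apart. TAGLN (transgelin, which bundles actin) had 7.57 and 7.43 in the combined knockdown, 8.05 and 7.49 after H3.Y siRNA, and 7.57 and 7.61 in luciferase cells, and its differences of -0.09 ± 0.20 and 0.18 ± 0.20 from luciferase lay within the spread.

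On the myosin side, the light chain MYL9 had 8.45 and 8.29 in the combined knockdown, 8.25 and 8.04 after H3.Y siRNA, and 8.29 and 8.09 in luciferase cells, with differences from luciferase of 0.18 ± 0.15 and -0.05 ± 0.15. MYLK had 6.58 and 6.60 in the combined knockdown, 6.20 and 6.18 after H3.Y siRNA, and 6.29 and 5.83 in luciferase cells. The combined knockdown arrays of MYLK were highest, without overlap, and its H3.Y and luciferase arrays overlapped. Its difference from luciferase was 0.53 ± 0.18 in the combined knockdown, or 0.30 to 0.76 when 1 array was left out, and 0.13 ± 0.18 after H3.Y siRNA.

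**Figure D2:**
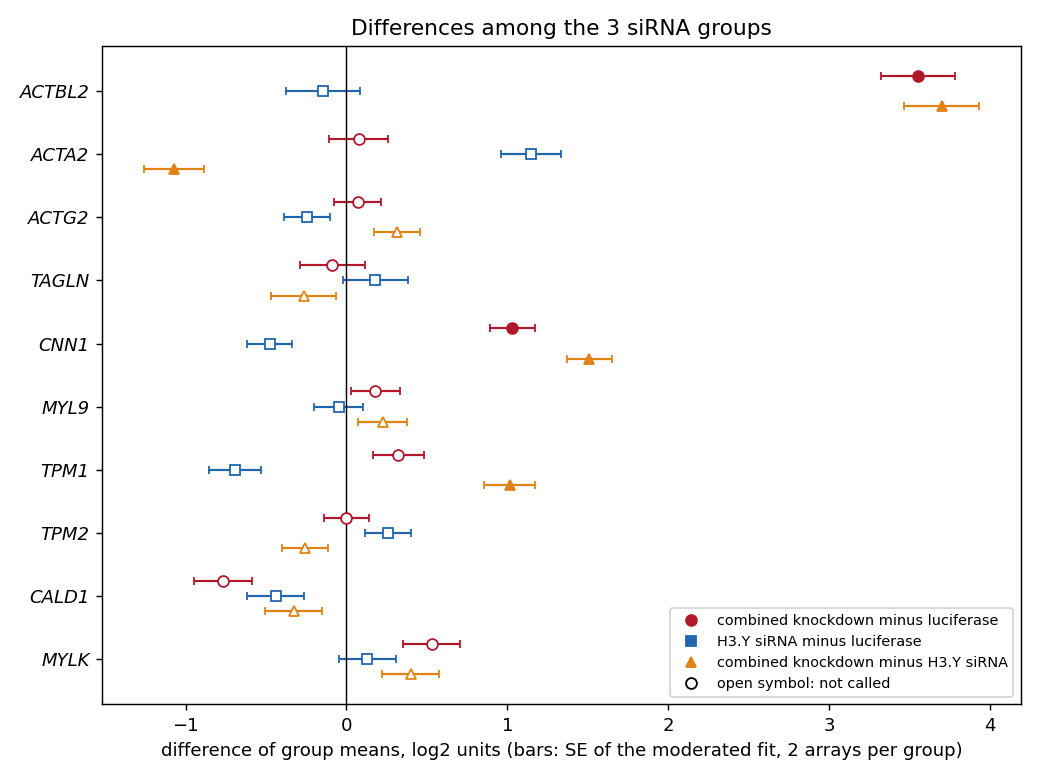
Differences of group means in log2 units (horizontal axis) for the 10 genes in the 3 comparisons, with the SE of the moderated fit as bars. Filled symbols are calls of the fit, given as a description, namely ACTBL2 and CNN1 for combined knockdown minus luciferase, and ACTBL2, CNN1, TPM1 and ACTA2 for combined knockdown minus H3.Y siRNA.

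Calls came from 1 limma fit over all 33297 probe sets, at a Benjamini-Hochberg adjusted p of 0.05. For the members they are listed as a description, since the members were chosen with these arrays known, and they test nothing. In the combined knockdown against luciferase, 2 of the 10 members were called, both higher (ACTBL2 and CNN1), where 1.84% of all probe sets were called (0.859% higher, 0.985% lower). The members' median difference was log2 0.13, and that of all probe sets was 0.00. Arrays of the 2 groups did not overlap for 6 of the 10 members, against 47.4% of all probe sets. In H3.Y siRNA against luciferase, 0 members were called by limma and 4 had an unadjusted p under 0.05, where 0.279% of probe sets were called (0.0841% higher, 0.195% lower) and 13.9% had such a p. The median of the members was -0.10 there, against 0.02 over all probe sets, and 6 members had groups without overlap, against 41.7%. Between the combined knockdown and H3.Y siRNA, 4 members were called, ACTBL2, CNN1 and TPM1 higher and ACTA2 lower in the combined knockdown, where 4.67% of probe sets were called (2.74% higher, 1.92% lower). An unadjusted p under 0.05 was held by 4 members in the first comparison, against 15.3% of probe sets, and by 4 in the last, against 19%. The members' median between the knockdowns was 0.27, against -0.03, and 9 members had groups without overlap, against 46.6%. Each pair of comparisons shares the arrays of 1 group. ACTBL2 was picked for its values in the combined knockdown, so its calls restate the choice, and nothing is read from any of these counts about the members.

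Leaving out 1 array leaves its group with 1, which is then assumed to vary like the others. When any 1 of the luciferase or combined knockdown arrays was left out, 0 of the 33297 probe sets were called in limma for combined knockdown against luciferase, with 2852 to 3897 at an unadjusted p under 0.05. The loss of calls there was thus common to all probe sets, while the ACTBL2 difference itself stayed between log2 3.28 and 3.83 and that of CNN1 between 0.97 and 1.09. Between the knockdowns, the log2 difference without 1 array lay between -1.21 and -0.94 for ACTA2 and between 0.87 and 1.16 for TPM1. It lay between 1.40 and 1.61 for CNN1 and between 3.48 and 3.91 for ACTBL2. ACTA2 was called in none of these fits, and TPM1, CNN1 and ACTBL2 not in all. Calls over all probe sets also changed from fit to fit, so those of the members say nothing particular about them and test nothing. ACTA2 and TPM1 were also not called in a fit of only the 4 arrays compared. In that fit 448 of the 33297 probe sets were called, against 1554 with all arrays.

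Companion genes of the same machinery were counted in 6 lists that name 98 genes, 91 of them measured. These lists were chosen with earlier results of these data known, so their calls and adjusted p are given as descriptions. In the combined knockdown against luciferase, 2 of the 91 were called, both higher, which is 2.20% beside the 1.84% of all probe sets. Both belonged to the regulators of contraction and actin. Gelsolin (GSN), which severs and caps actin filaments, had 8.55 and 8.21 in the combined knockdown against 6.95 and 6.72 in luciferase cells, and rose by log2 1.54 ± 0.23 (limma adjusted p = 0.035). The small GTPase RHOB had 8.57 and 8.61 in the combined knockdown against 7.55 and 7.45 in luciferase cells, and rose by 1.09 ± 0.13 (limma adjusted p = 0.021). For both genes every combined knockdown array lay above every luciferase array. The other 21 measured regulators, among them RHOA, ROCK1, ROCK2 and the myosin phosphatase subunits, did not pass. The median over the 23 was 0.00, as over all probe sets. When any 1 luciferase or combined knockdown array was left out, neither gene was called, as 0 of all 33297 probe sets were, and the differences lay between 1.37 and 1.71 for GSN and between 1.04 and 1.14 for RHOB.

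In H3.Y siRNA against luciferase, 0 of the 91 companion genes were called by limma. An unadjusted p under 0.05 was held by 21 of them, 6 higher and 15 lower. Such a p was held by 13.9% of all probe sets, and by 3834 of the 19460 with 1 symbol when fitted alone. Without H3.Y replicate 2, 4 were called (SMTN higher, CFL2, CNN3 and EGR1 lower), with 629 of the 33297 probe sets called in that fit, against 93 with all arrays. The lowest adjusted p was 0.094, that of smoothelin (SMTN), a stress fibre protein of smooth muscle. It had 8.57 and 8.08 after H3.Y siRNA against 7.26 and 7.32 in luciferase cells, a difference of 1.04 ± 0.19.

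Between the combined knockdown and H3.Y siRNA, 7 of the 91 companion genes were called, 5 higher and 2 lower in the combined knockdown, which is 7.69% beside 4.67% of all probe sets. GSN gave log2 1.98 ± 0.23 and RHOB 0.83 ± 0.13, with limma adjusted p of 0.013 and 0.024. Calponin 3 (CNN3), a calponin found outside smooth muscle, had 10.03 and 9.92 in the combined knockdown against 8.24 and 8.71 after H3.Y siRNA, with luciferase cells between at 9.27 and 9.23. It was 2.83-fold higher (SE 0.18 log2, limma adjusted p = 0.014), beside 2.85-fold for CNN1. Vinculin (VCL), which links actin to adhesion sites and is an SRF target, had 8.91 and 8.78 in the combined knockdown against 7.68 and 7.69 after H3.Y siRNA, with luciferase cells at 8.29 and 8.19. It gave 1.16 ± 0.13 (limma adjusted p = 0.012). The LIM protein CSRP1 gave 0.74 ± 0.14 (limma adjusted p = 0.041).

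The 2 companion genes lower in the combined knockdown than after H3.Y siRNA were SMTN and ACTN2, a muscle alpha-actinin. SMTN had 7.10 and 7.01 in the combined knockdown against 8.57 and 8.08 after H3.Y siRNA, a difference of -1.27 ± 0.19 (limma adjusted p = 0.021). ACTN2 had 4.65 and 4.69 in the combined knockdown against 5.32 and 5.34 after H3.Y siRNA, a difference of -0.66 ± 0.13 (limma adjusted p = 0.042). As for ACTA2, the H3.Y arrays were the high ones for both. Of the 7 calls, CNN3, GSN and VCL remained without luciferase replicate 1 or 2, these and SMTN without H3.Y replicate 1, all but ACTN2 without H3.Y replicate 2, and 0 without combined knockdown replicate 1 or 2. Their differences kept their sign in all these fits, from 1.69 to 2.27 for GSN and from -1.52 to -1.03 for SMTN.

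**Figure D3:**
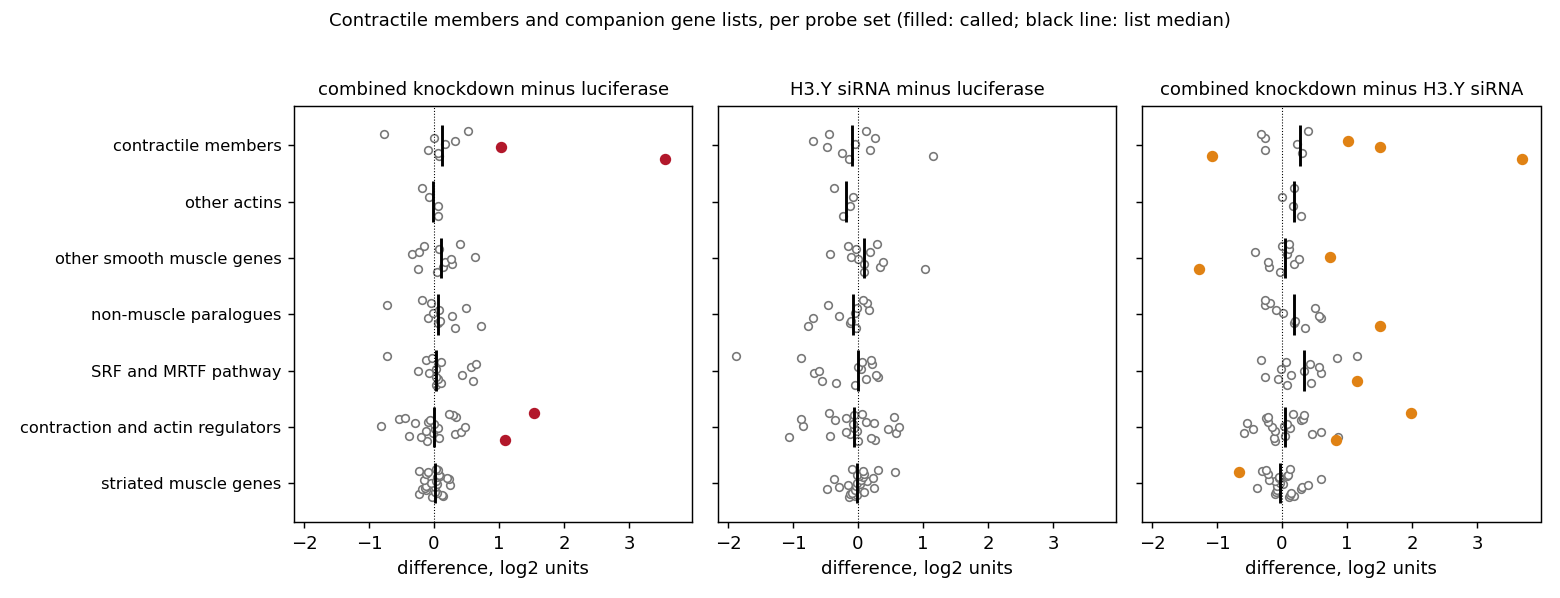
Differences in log2 units per probe set for the contractile members and the 6 companion lists, 1 panel per comparison, all on the same horizontal scale. Filled points passed the adjusted threshold, black lines are list medians, which lie within 0.35 of 0, and ACTBL2 is the point farthest right in the first and last panels.

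Against luciferase, the list medians lay between -0.18 and 0.11, and between the knockdowns they reached 0.35. The 4 other actins had medians of -0.01 in the combined knockdown and -0.18 after H3.Y siRNA, both against luciferase. For the 12 other smooth muscle genes they were 0.11 in the combined knockdown and 0.09 after H3.Y siRNA, both against luciferase. For the 15 measured genes of the SRF and MRTF pathway they were 0.04 and 0.00, with 0 called by limma in either. In the combined knockdown, 4 of the 15 had an unadjusted p under 0.05, all higher, beside 15.3% of all probe sets. After H3.Y siRNA, 6 of the 15 had such a p, all lower, beside 13.9%. SRF itself lay between 7.84 and 8.14 on all arrays. The 11 measured non-muscle paralogues had medians of 0.07 and -0.07, and the 26 measured striated muscle genes 0.02 and -0.01. Between the knockdowns the SRF and MRTF list had the highest median, 0.35, against -0.03 over all probe sets. In it VCL was called, which is 6.67% of the 15 genes beside 4.67% of all probe sets, and 6 genes, all higher in the combined knockdown, had an unadjusted p under 0.05, beside 19% of all probe sets. The non-muscle paralogues had a median of 0.19 there, the other actins 0.18, the other smooth muscle genes 0.04, the regulators 0.04 and the striated muscle genes -0.03.

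The cells were also checked against marker lists, which were likewise chosen with earlier results known, so that their calls are descriptions too. Of the osteoblast and mesenchymal markers, VIM lay between 10.69 and 10.95, SPARC between 9.94 and 11.55 and COL1A1 between 8.33 and 10.73, while RUNX2, COL1A2, ALPL and SP7 lay between 4.78 and 6.57. Of the 5 defining smooth muscle genes, MYH11, LMOD1 and MYOCD lay between 2.91 and 4.48 on every array, below the array medians, DES lay between 5.13 and 5.59 and SMTN between 7.01 and 8.57. Of the 5, SMTN was called, between the knockdowns. Summed, these 5 ran from 23.6 to 24.2 in the combined knockdown, from 24.9 to 25.1 after H3.Y siRNA and from 23.0 to 23.9 in luciferase cells. Summed over its 7 probe sets, the osteoblast and mesenchymal list ran from 54.7 to 55.6 in the combined knockdown, from 50.8 to 51.9 after H3.Y siRNA and from 51.1 to 52.1 in luciferase cells. The epithelial list ran from 57.3 to 57.5, from 46.6 to 49.8 and from 50.3 to 51.7 in the same order. EPCAM and KRT18 each enter this sum with 2 probe sets. EPCAM was called higher in the combined knockdown against both other groups on both of its probe sets. The osteoblast and mesenchymal sum and the epithelial sum were both high where ACTBL2 and CNN1 were high. Against luciferase, all 7 epithelial probe sets and 6 of the 7 osteoblast and mesenchymal ones were higher in the combined knockdown, by unequal amounts. Against H3.Y siRNA, 6 and 4 of the 7 were higher. Between combined knockdown and luciferase, COL1A1 (1.58, limma adjusted p = 0.019) was called and SPARC (1.02, adjusted p = 0.054) was not. RUNX2 (0.48) and COL1A2 (0.39) were also higher without a call, while VIM, SP7 and ALPL differed by -0.02 to 0.12. Between the knockdowns COL1A1 (2.10, limma adjusted p = 0.0058) and SPARC (1.31, adjusted p = 0.019) were called. Against luciferase the EPCAM probe sets gave 2.25 and 2.73, and the KRT18 and KRT19 probe sets 0.05 to 0.22. CDH1 (0.59) and KRT8 (0.46) lay between these and were not called. The part of these genes in the members' values was not tested. In the pericyte, endothelial, skeletal and cardiac muscle and blood lists, 0 genes were called by limma in any comparison, with 0 to 2 genes per list at an unadjusted p under 0.05. The pericyte sum ran from 24.7 to 25.6 in the combined knockdown. It ran from 26.2 to 26.9 after H3.Y siRNA and from 26.2 to 27.5 in luciferase cells. The endothelial sum ran from 21.7 to 22.0, from 22.6 to 22.8 and at 22.5 in the same order. Both were thus lowest in the combined knockdown. Against luciferase, 5 of the 5 pericyte and 2 of the 6 endothelial probe sets were lower there. The skeletal and cardiac muscle and blood sums overlapped between groups.

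Genes with array profiles most like that of ACTBL2 were looked for among 1320 probe sets with 1 symbol, outside the members, whose SD over the 6 arrays was at least 0.5 log2. The 3 highest Pearson correlations were those of GPR39 (a zinc-sensing receptor, r = 0.994), LUM (the matrix proteoglycan lumican, r = 0.993) and THBS1 (thrombospondin 1, r = 0.992). LUM had 6.29 and 6.59 in the combined knockdown, 1.85 and 1.72 after H3.Y siRNA, and 2.39 and 1.95 in luciferase cells. The lowest correlations were those of SRP9, of the signal recognition particle, and SPART, the spastic paraplegia protein spartin, at r = -0.998 each. Of the 1320 probe sets, 112 (8.48%) had r of at least 0.95. The 6 points share 3 groups and, for ACTBL2, fall at a high and a low level, so a high r says little more than that a gene separates the combined knockdown from the rest. Among the members, CNN1 had r = 0.95, MYLK 0.87, TPM1 0.76, MYL9 0.71 and ACTG2 0.56, while TPM2 and ACTA2 had -0.44, TAGLN -0.49 and CALD1 -0.75.

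**Figure D4:**
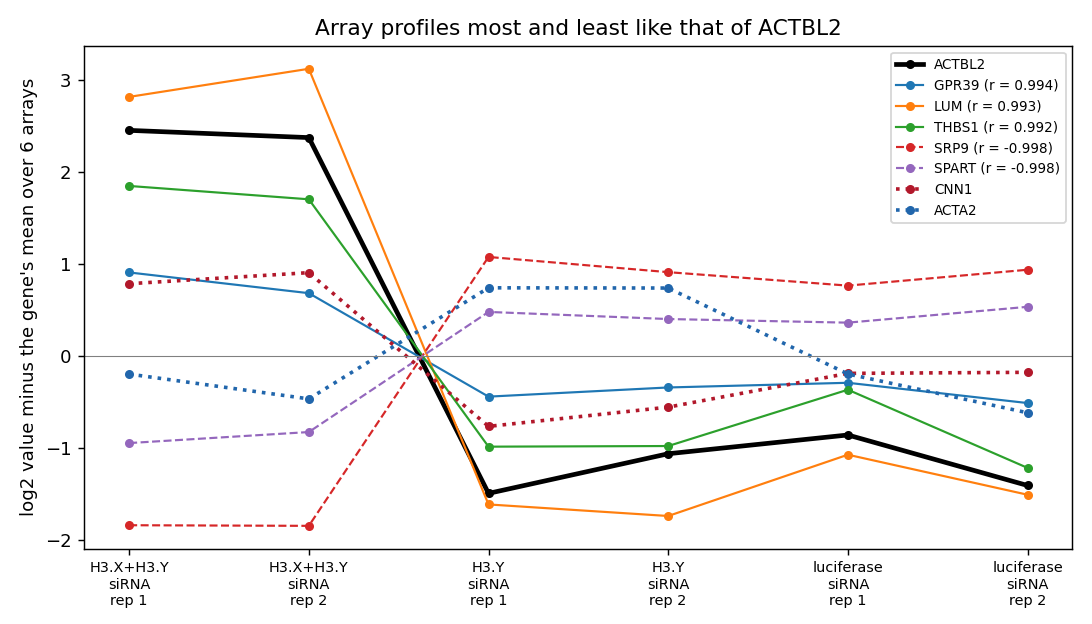
Log2 value minus the gene's own mean over the 6 arrays (vertical axis) on each array, for ACTBL2 (thick black), the 3 genes most like it, the 2 least like it (dashed), CNN1 and ACTA2 (dotted). The like genes are high on both combined knockdown arrays, SRP9 and SPART are low there, and ACTA2 is high on the H3.Y arrays.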

How the data were processed

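RNA from the cultures was labelled and hybridised to Affymetrix arrays by the standard procedure, per the labels' protocols. The deposited log2 expression values per probe set were summarised by the authors in oligo, a Bioconductor package, according to the submitters' processing notes. Its version, its settings and a genome build were not given in the sources used here. That the scale is log2 was read off its span of 0.687 to 14.0. Values were used as deposited, with 0 value columns left unused.

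Probe sets were named from the platform annotation, with symbols updated by Entrez ID through RefSeq (GRCh38.p14). Of 33297 probe sets, 19460 had exactly 1 symbol, and no gene was named from the 1754 with several or the 12083 unnamed here. Groups and replicate numbers came from the labels. Differences were fitted with limma 3.58.1 in R 4.3.3 (lmFit, eBayes), with a mean for each group over the 6 arrays and 3 residual plus 3.43 prior degrees of freedom. Two-sided p-values were adjusted by the Benjamini-Hochberg method for each comparison, across the whole table, and the threshold was 0.05. The procedure was tested on simulated data. The members, the 6 companion lists (other actins, other smooth muscle genes, non-muscle paralogues, SRF and MRTF pathway, contraction and actin regulators, striated muscle genes), the 7 marker lists and the tests were chosen with earlier results of these data known. Text names all members, companion genes called in any comparison (up to 6 a list and comparison, or else 2 with the smallest p as values), and, of the 5 genes most and 2 genes least like ACTBL2 over the arrays, all but 2 that are not reported here. Genes named beyond these were chosen after their values were seen. The settings varied were the replicate number as a block, a fit of just the 4 arrays of a comparison, a further quantile normalization, median centring, a filter at the 25th percentile of mean level, only probe sets with 1 symbol, a variance trend, 1 probe set per gene, and leaving out each array.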

Additional observations from a re-analysis of the deposited data

How the results depend on the processing

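The differences of the members kept their sign under every alternative for all 6 member calls. ACTBL2 differed from luciferase in the combined knockdown by log2 3.54 to 3.56 under the 7 alternatives on all arrays compared and by 3.28 to 3.83 without 1 array, from H3.Y siRNA by 3.70 (3.48 to 3.91 without 1 array), and H3.Y siRNA from luciferase by -0.42 to 0.13 without 1 array. Testing only the 19460 probe sets with 1 symbol raised the counts. It called 2 members after H3.Y siRNA (ACTA2 higher, TPM1 lower) instead of 0, CALD1 (lower) in addition in the combined knockdown, and 8, 6 and 15 companion genes (combined knockdown against luciferase, H3.Y siRNA against luciferase, combined knockdown against H3.Y siRNA) instead of 2, 0 and 7, and over all probe sets tested 1549, 829 and 2715 instead of 614, 93 and 1554. The cause was not tested. With a variance trend 4 companion genes were called in the combined knockdown against luciferase, and 960 instead of 614 of all probe sets. With only the 4 arrays compared, 2 members and 3 companion genes were called between the knockdowns, and 448 instead of 1554 of all probe sets. Fits without 1 array had 1 residual degree of freedom fewer and left a group with 1 array, so their calls are not counted here. With 1 probe set per gene, 9 member calls were made over the 3 comparisons instead of 6. The calls over all genes were not counted in that fit.

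Same-numbered arrays deviated together (r = 0.28, 0.22 and 0.12 over probe sets for the 3 pairs of groups), but with 2 numbers and no label of a shared batch this does not show that the numbers pair the samples. With the replicate block, 2, 0 and 4 members and 2, 0 and 7 companion genes were called, so the block changed none of these counts. Over all probe sets the block gave 750, 68 and 1778 calls instead of 614, 93 and 1554. Quantile normalization again and median centring left the median of all probe sets within 0.03 of 0. Values in the low part of the scale, such as ACTBL2 outside the combined knockdown, ACTG2, MYH11, LMOD1 and MYOCD, give little information on small differences.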
